A study of Mus musculus with 6 samples.

Results

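Imprinted genes are read mainly or only from the allele of 1 parent. A set of 46 such mouse genes, chosen by symbol, was followed in embryonic cortex after conditional knockout of the histone deacetylases Hdac1 and Hdac2. Of the 46 genes, 34 had a row in the table used, out of 12041 symbols, and 25 of these passed the filter for testing, 3 or more libraries at 1 FPKM or higher. By literature knowledge, 24 of the 46 are expressed from the paternal allele and 19 from the maternal allele. The other 3 (Grb10, Gnas and Inpp5f) were listed apart because their allele depends on the transcript or the cell type. Some of the rest, such as Copg2, are imprinted only in some tissues. Whether each gene is imprinted in cortex at this age was not tested. The libraries carry no information on alleles, so every value is the summed RNA of both parental copies.

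The samples were cortex of C57BL/6 embryos at embryonic day 12.5. One group carried a conditional knockout of Hdac1 together with Hdac2 (cKO), with 3 libraries (named HM-5, HM-13 and HM-16), and 3 libraries (named HC-1, HC-8 and HC-10) came from wild type embryos (WT). The recombinase, its promoter, the deleted exons, litters and pooling are not stated in the sources used here. Since the labels do not tie each library to its own embryo, a p-value speaks only for the spread among the 6 libraries, and part of that may be technical. Values are FPKM, fragments scaled to row length and depth. Differences were tested with limma on log2(FPKM + 1), adjusted over all 9359 symbols tested, and called at an adjusted p under 0.05. Fold changes on that scale understate the change of low genes, so ratios of mean FPKM are given beside them.

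Most imprinted genes lie in clusters governed by a region of DNA methylation laid down in the egg or the sperm and kept in the embryo. The methylated copy is bound by the zinc finger protein ZFP57 with its partner TRIM28, and histone deacetylases belong to the machinery that keeps such copies silent. The clusters hold growth regulators, such as the growth factor Igf2 and its scavenging receptor Igf2r. They also hold non-coding RNAs and genes of the nervous system, such as those deleted in Prader-Willi syndrome.

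The promoters of 4 of the members that changed are shown because their base composition differs widely, from 1 to 34 CpG, the dinucleotide that is methylated at imprinted regions. Each window runs from 250 bases before to 50 bases after a RefSeq start (build GRCm38.p6). CpG dinucleotides are in capitals.
Igf2r chr17:12769657-12769956 (- strand): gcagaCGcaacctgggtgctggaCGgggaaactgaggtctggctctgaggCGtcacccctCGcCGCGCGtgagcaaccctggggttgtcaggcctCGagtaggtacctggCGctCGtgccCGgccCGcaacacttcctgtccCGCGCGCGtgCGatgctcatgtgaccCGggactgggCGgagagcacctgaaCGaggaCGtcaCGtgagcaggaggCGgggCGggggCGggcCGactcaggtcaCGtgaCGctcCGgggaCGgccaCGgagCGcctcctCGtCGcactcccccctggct
Meg3 chr12:109540746-109541045 (+ strand): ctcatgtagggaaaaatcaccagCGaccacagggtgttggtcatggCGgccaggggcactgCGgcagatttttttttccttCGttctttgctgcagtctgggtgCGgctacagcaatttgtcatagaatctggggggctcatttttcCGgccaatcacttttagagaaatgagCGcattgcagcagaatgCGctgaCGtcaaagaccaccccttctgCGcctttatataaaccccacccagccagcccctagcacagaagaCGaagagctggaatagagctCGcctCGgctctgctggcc
Meg3 chr12:109545148-109545447 (+ strand): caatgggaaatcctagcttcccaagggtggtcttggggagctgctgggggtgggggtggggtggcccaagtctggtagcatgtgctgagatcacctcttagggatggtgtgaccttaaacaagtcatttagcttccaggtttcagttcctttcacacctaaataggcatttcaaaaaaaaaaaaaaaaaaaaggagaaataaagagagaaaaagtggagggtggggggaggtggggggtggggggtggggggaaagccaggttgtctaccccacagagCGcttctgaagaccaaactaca
Mest chr6:30737800-30738099 (+ strand): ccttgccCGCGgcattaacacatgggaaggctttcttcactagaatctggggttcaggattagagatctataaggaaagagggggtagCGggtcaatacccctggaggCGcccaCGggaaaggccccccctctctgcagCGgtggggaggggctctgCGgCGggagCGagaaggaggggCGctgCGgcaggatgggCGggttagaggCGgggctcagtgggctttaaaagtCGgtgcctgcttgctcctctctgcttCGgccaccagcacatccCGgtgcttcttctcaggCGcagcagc
Magel2 chr7:62376729-62377028 (+ strand): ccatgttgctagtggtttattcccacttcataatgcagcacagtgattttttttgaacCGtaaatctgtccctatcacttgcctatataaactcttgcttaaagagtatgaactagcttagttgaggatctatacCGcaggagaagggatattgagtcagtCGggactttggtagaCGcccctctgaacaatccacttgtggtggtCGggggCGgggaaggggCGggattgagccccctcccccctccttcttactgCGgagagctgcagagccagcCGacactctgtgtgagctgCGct
The Igf2r window held 34 CpG, which placed it at percentile 92.3 of 32851 promoters of this length, whose median was 7. Meg3 has a pair of starts. The upstream window, where the transcript named for the shorter Meg3 row below begins, held 13 CpG. The downstream window, where the transcript named for the longer row begins, held 1. That longer row holds 11472 bases and the transcript 14548, so the start behind its values cannot be told. The Mest window held 17 CpG and is the RefSeq start of the transcript named for the Mest row. The Magel2 window held 10 CpG. The hexamer TGCCGC, the core that ZFP57 binds when methylated, was searched on both strands. It occurred once in the upstream Meg3 window and 2 times in the Mest window, with 0 matches in the other 3 shown. Commd1, the remaining member that changed, has windows with 18 CpG and 1 match and with 17 CpG and 0 matches. A further Mest start, upstream of the window shown, had 8 CpG and 0 matches. In all, 11.6% of promoters held it, and so did 13 of the 52 distinct windows (25.0%) of the 37 members that had one, a pair of which, at Mest, nearly coincide. The median of the members' promoters was 16 CpG, beside 7 for all, and the hexamer itself holds a CpG. The heptamer CCATNTT, a core of YY1 sites, stood once in the Magel2 window. It occurred in 16.1% of all promoters and in 6 of the 52 windows of members (11.5%).

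Both targeted genes were low in all cKO libraries. Hdac1 was at 45.5, 61.0 and 47.4 FPKM in cKO, against 212, 197 and 193 FPKM in WT, or 25.6% of WT (limma, adjusted p = 0.000307). Hdac2 was at 23.6% of WT (limma, adjusted p = 0.00441). Reads over the table ran from 9712556 to 11922665 per library. HM-13 stood apart: the ribosomal RNA precursor Rn45s took 29.7% of its reads, against 0.506% to 2.48% in the other libraries. The same 5 members were called with and without HM-13. The cortical marker Emx1 was present in every library (147 to 179 FPKM in cKO, against 166 to 201 FPKM in WT). Markers of meninges, blood, vessels, microglia and choroid plexus were detected in both groups. The summed FPKM of 7 choroid plexus and hem markers (of 10 listed) was 182, 151 and 159 in cKO, against 244, 307 and 30.4 in WT, so HC-10 stood apart. The sum of 3 ventral telencephalic and diencephalic markers (of 11 listed) was 3.64, 21.4 and 19.4 in cKO, against 9.08, 53.9 and 46.0 in WT, lowest in HM-5 and HC-1, with a median log2 fold change of -1.14 and 0 called by limma or voom (1 at an unadjusted p under 0.05, and 1 called by limma without HM-13). The sum of 6 microglial markers (of 10 listed) was 69.1, 77.3 and 81.0 in cKO, against 62.6, 51.1 and 52.8 in WT, without overlap, and the part of these cells and regions in the values of members was not tested. In bulk tissue, fewer cells of a type and less RNA per cell cannot be told apart.

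Of the 25 members tested, 5 passed the test, which is 20% of them beside 18% of all symbols tested. The share called among imprinted genes was thus close to that of all genes. The maternally expressed Igf2r and Meg3 rose, beside 9.62% of all symbols that rose. The paternally expressed Mest and Magel2 and the maternally expressed Commd1 fell, beside 8.39% of all symbols that fell. The groups did not overlap for 9 of the 25 members (36%), beside 39.1% of all symbols, with 2 members above WT (19.5% of all symbols) and 7 below (19.6% of all symbols). By limma 9 members (36%) had an unadjusted p under 0.05, beside 34.3% of all symbols, and voom on the recovered reads called 6 (24%), beside 20.4% of all symbols. With FPKM rescaled to library totals, in which the Rn45s reads of HM-13 count, Mest passed and the adjusted p was 0.177 for Igf2r, 0.362 for Meg3, 0.209 for Magel2 and 0.447 for Commd1.

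Of the 15 paternally expressed genes tested, 0 rose and 2 fell. Their median log2 fold change was -0.10, beside -0.01 over all symbols, and 13 of the 15 (86.7%) were below 0, beside 51.2% of all symbols. Some of the 13 lay near 0, among them Zrsr1 (-0.0033), Plagl1 (-0.04), Peg13 (-0.05) and Kcnq1ot1 (-0.05). Ndn, Magel2, Mkrn3 and Snrpn, 4 of the 13, belong to 1 cluster and may not vary independently. For 5 of the 15 (33.3%) every cKO library lay below every WT library, beside 19.6% of all symbols. The 7 maternally expressed genes tested had a median of 0.05, with 4 above 0 and 3 below, and 2 rose and 1 fell. These medians carry no test, and the maternal one was -0.04 with FPKM rescaled to library totals. Of the 11 tested members listed here with a germline methylated region at a promoter, 0 rose and 1 (Mest) fell, with a median of -0.08. That promoter need not be the start of the row measured. Of the other 14, 2 rose and 2 fell, with a median of -0.06. These 14 include Grb10, Gnas and Inpp5f, whose allele depends on the transcript or the cell type. The split follows the list alone and was not checked for each transcript, so the 14 are not known to lack such a region.

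**Figure D1:**
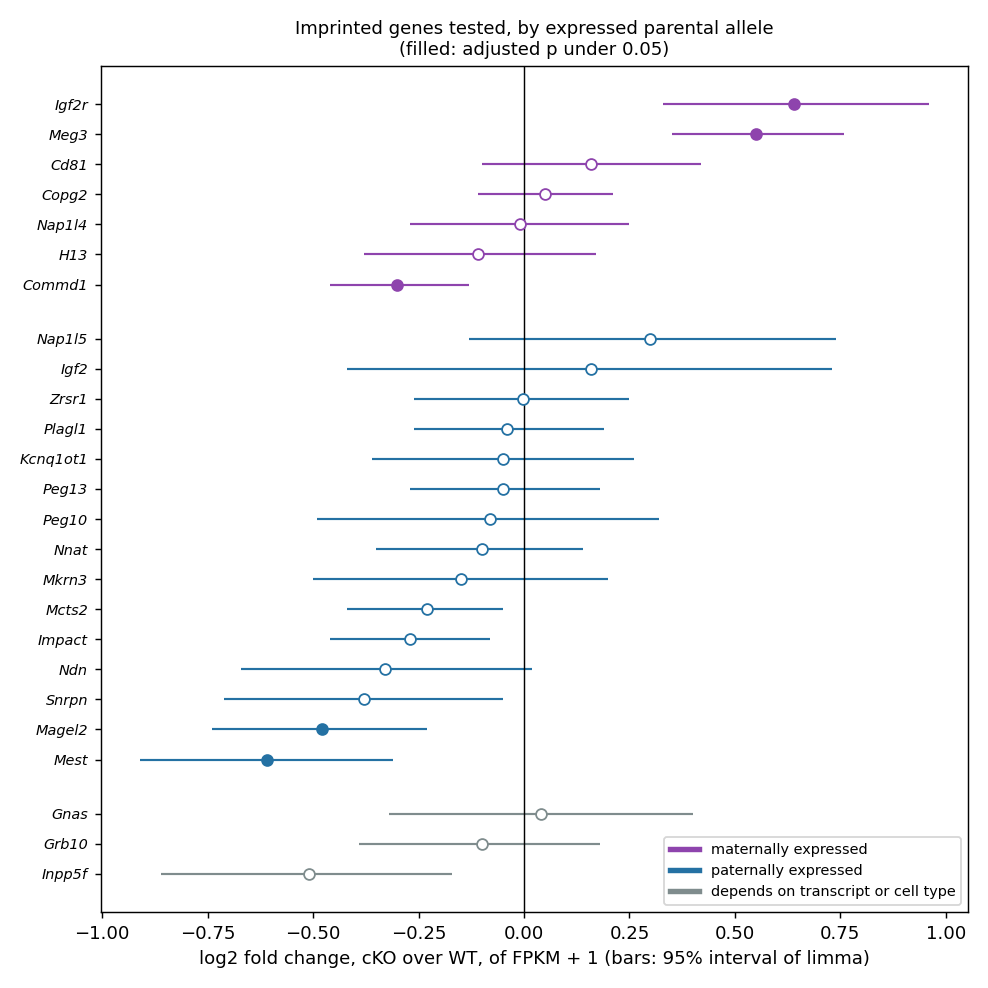
The log2 fold change, cKO over WT on the log2(FPKM + 1) scale, of each of the 25 imprinted genes tested, coloured by the expressed allele, with bars for the 95% confidence interval from limma. Filled points passed the test: Igf2r and Meg3 lie to the right of 0, and Mest, Magel2 and Commd1 to the left.

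Igf2r, the maternally expressed receptor that takes the growth factor Igf2 into lysosomes, rose. It was at 64.2, 48.6 and 63.8 FPKM in cKO, against 42.8, 36.2 and 32.7 FPKM in WT. Every cKO library lay above every WT library. The means were 58.9 ± 8.89 FPKM in cKO and 37.2 ± 5.13 FPKM in WT (SD, n = 3 each), a ratio of 1.58. The log2 fold change was 0.64 (SE 0.14; limma, adjusted p = 0.0182). The value rests on 3107 to 6481 reads per library. The call was lost without HM-5 (adjusted p = 0.0777), HM-16 (0.0716) or HC-10 (0.0554). Igf2r spans chr17:12682406-12769664 on the minus strand (GRCm38). The non-coding Airn, which silences Igf2r on the paternal copy, runs antisense over 28354 bases of it but shares 0 exon bases with it. Airn itself was not analysed here.

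Igf2, the paternally expressed ligand, did not pass the test. It was at 5.63, 3.68 and 5.87 FPKM in cKO, against 6.63, 3.28 and 3.72 FPKM in WT (limma, adjusted p = 0.694). The groups overlapped, and the highest value was in a WT library. Igf2 is abundant in mesenchyme, and the summed FPKM of 10 mesenchymal and meningeal markers (of 12 listed) was 375, 259 and 415 in cKO, against 469, 220 and 254 in WT. HC-1, the library with the highest Igf2, also had the highest marker sum. HC-8, the library with the lowest Igf2, had the lowest sum. The part of these cells in the Igf2 values was not tested. H19, the non-coding partner of Igf2, was not analysed here. In the IGF pathway, 12 of 16 listed genes were tested and limma called 0, with 4 at an unadjusted p under 0.05 (33.3%, beside 34.3% of all symbols) and 1 called by voom. The receptor Igf1r was 1.35-fold WT (limma, adjusted p = 0.0829) and the growth kinase Mtor 1.14-fold (limma, adjusted p = 0.103). The median log2 fold change of the 12 was 0.15, beside -0.01 for all symbols. Grb10, an adaptor that dampens signalling of insulin-type receptors, was at 3.30, 3.01 and 3.63 FPKM in cKO, against 3.32, 4.16 and 3.45 FPKM in WT (limma, adjusted p = 0.588).

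Meg3, the maternally expressed non-coding RNA of the Dlk1/Meg3 cluster, rose, and it was the member whose call was kept in all 6 fits that left out 1 library (largest adjusted p 0.0397). Its longer row (ENSMUST00000146701, 11472 bases) was at 12.0, 13.1 and 12.7 FPKM in cKO, against 8.50, 8.67 and 7.73 FPKM in WT. The lowest cKO library stood well clear of the highest WT library. The means were 12.6 ± 0.558 FPKM in cKO and 8.30 ± 0.502 FPKM in WT (SD, n = 3 each), a ratio of 1.52. The log2 fold change was 0.55 (SE 0.09; limma, adjusted p = 0.00756).

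A shorter Meg3 row (ENSMUST00000129245, 1503 bases) changed the same way. It was at 15.1, 17.8 and 18.4 FPKM in cKO, against 8.34, 11.3 and 6.37 FPKM in WT. The groups did not overlap. The ratio of means was 1.97 and the log2 fold change 0.93 (SE 0.18; limma with every row as a feature, adjusted p = 0.0153, beside 15.8% of all rows called). The row ENSMUST00000143836 (870 bases) was at 2.85, 1.6 and 1.53 FPKM in cKO, against 1.43, 2.16 and 0.863 FPKM in WT, and its groups overlapped (limma with every row as a feature, adjusted p = 0.465). The remaining row, another one named ENSMUST00000146701 with 12939 bases, held 2 to 14 reads per library and was not tested. The rows overlap along 1 gene (chr12:109541001-109571726, plus strand), and how shared reads were split among them is not given, so the rows are not independent. The antisense gene Gm26906 shares 1228 exon bases with Meg3, and strandedness is not given, so reads of this pair cannot be told apart.

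Of the other members of this cluster, Mirg had no row and 4 were too low to test. Dlk1, a paternally expressed Notch-family ligand, was at 0.775, 0.571 and 0.932 FPKM in cKO, against 0.608, 0.352 and 0.261 FPKM in WT, with overlapping groups (limma without the filter, adjusted p = 0.126). Rian, a maternally expressed RNA downstream of Meg3, was at 0.408, 0.357 and 0.146 FPKM in cKO, against 0.0547, 0.0966 and 0.202 FPKM in WT. Its groups overlapped too. The capsid-derived Rtl1 and the thyroid hormone deiodinase Dio3, both paternally expressed, lay between 0.197 and 1.36 FPKM with overlapping groups.

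**Figure D2:**
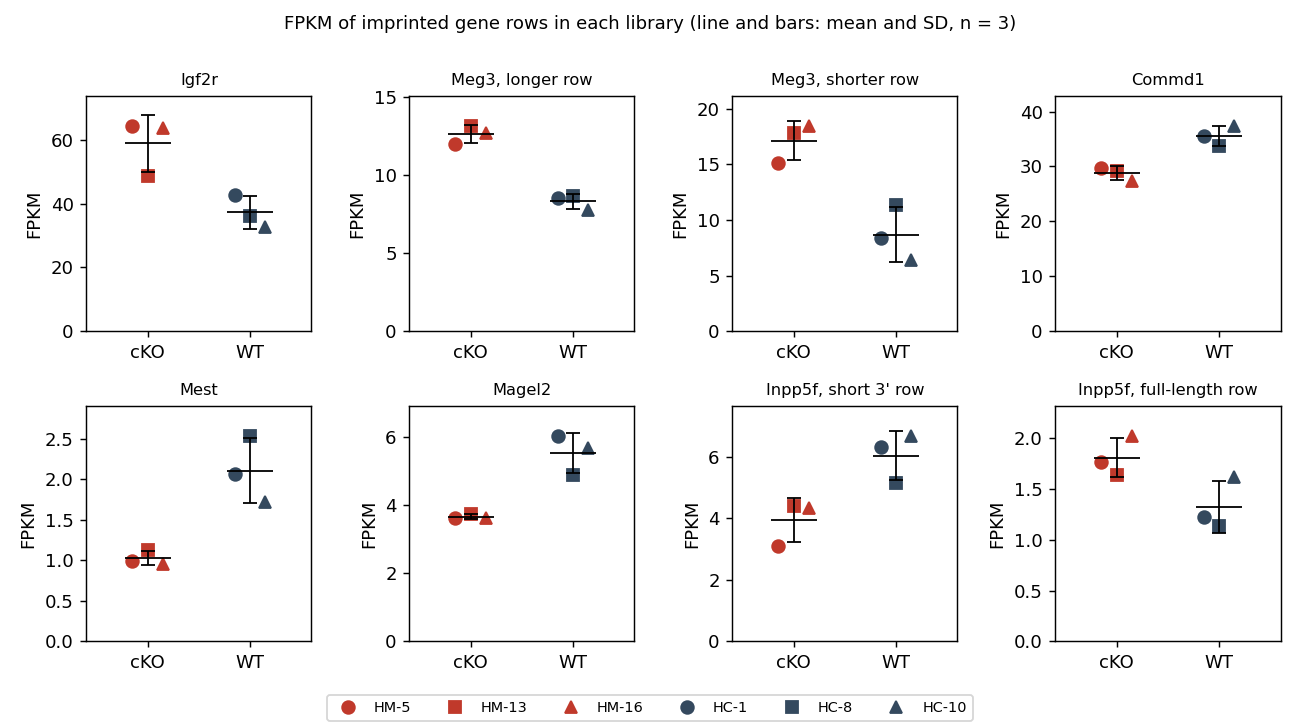
FPKM in each library for 8 rows of imprinted genes, cKO at the left and WT at the right, with the group mean as a line and the SD as a bar (n = 3). The Igf2r and both Meg3 rows and the full-length Inpp5f row lie higher in cKO, and the Commd1, Mest, Magel2 and short Inpp5f rows lie lower, with no overlap of the groups in any panel.

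Mest, a paternally expressed gene of the hydrolase fold abundant in mesoderm, fell. It was at 0.994, 1.13 and 0.959 FPKM in cKO, against 2.07, 2.53 and 1.72 FPKM in WT. Every cKO library was below every WT library. The means were 1.03 ± 0.0908 FPKM in cKO and 2.11 ± 0.404 FPKM in WT (SD, n = 3 each), so cKO had 48.8% of the WT level. The log2 fold change was -0.61 (SE 0.13; limma, adjusted p = 0.0188), and -1.03 by voom on the reads. Only 26 to 86 reads per library lie behind these values, and 4 libraries reached the 1 FPKM of the filter. The call was lost without HM-5 (adjusted p = 0.0777) or HM-16 (0.0713). The part of mesenchymal cells in the Mest values was not tested.

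The neighbour of Mest, the coat protein gene Copg2, is maternally expressed in some tissues and lies on the opposite strand, sharing 912 exon bases with it. Copg2 was at 65, 73 and 71 FPKM in cKO, against 63.6, 69.1 and 68.5 FPKM in WT (limma, adjusted p = 0.622). It was thus far higher than Mest and its groups overlapped. Without strand, reads in the shared bases cannot be told apart between these genes.

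Magel2, a paternally expressed gene of the Prader-Willi cluster that acts in protein ubiquitination and endosomal recycling, fell. It was at 3.64, 3.74 and 3.62 FPKM in cKO, against 6.03, 4.90 and 5.68 FPKM in WT. The cKO libraries lay close together and below all WT libraries. The means were 3.67 ± 0.061 FPKM in cKO and 5.53 ± 0.578 FPKM in WT (SD, n = 3 each), or 66.2% of WT. In log2 terms the difference was -0.48 (SE 0.11; limma, adjusted p = 0.0235). The call was lost without HM-5 (adjusted p = 0.0909), HM-16 (0.0799), HC-1 (0.0648) or HC-10 (0.0728).

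The other 3 tested members of this cluster had log2 fold changes below 0 without passing the test. More genes of the region, named after their values were seen, come from the wider list of imprinted genes described further on. Peg12 lay near 0, at 107% of WT (log2 fold change 0.09; limma, adjusted p = 0.528). So did the long non-coding Snhg14, at 102% (0.03; limma, adjusted p = 0.89). The non-coding Ipw was at 73% of WT (-0.42; limma, adjusted p = 0.373), and Atp10a fell to 62.3% (-0.55; limma, adjusted p = 0.0139). Ndn, a neuronal growth suppressor and the highest paternally expressed member, was at 181, 247 and 207 FPKM in cKO, against 272, 220 and 308 FPKM in WT (79.5% of WT; limma, adjusted p = 0.163). HM-13 lay above HC-8, so the groups overlapped. Snrpn encodes a splicing protein. The transcript named for its row (ENSMUST00000098402) starts 134.8 kb upstream of the window that RefSeq gives for the start shared with Snurf. The row holds 2794 bases and that transcript 2076, and how shared reads were counted is not given. The start behind the Snrpn values thus cannot be told. Snrpn was at 1.11, 1.37 and 0.882 FPKM in cKO, against 1.56, 1.57 and 2.15 FPKM in WT. The groups did not overlap (63.6% of WT; limma, adjusted p = 0.101). Mkrn3, a ubiquitin ligase linked to the timing of puberty, was at 10.4, 13.9 and 11 FPKM in cKO, against 11.4, 12.2 and 15.9 FPKM in WT (limma, adjusted p = 0.529).

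In each group, the highest values of Ndn, Snrpn and Mkrn3 fell in the library with the highest sum of neuronal markers. The summed FPKM of 11 neuronal markers (of 12 listed) was 907, 1330 and 939 in cKO, against 1230, 1290 and 1620 in WT. All 10 neuronal markers tested were below 0 in log2 fold change (median -0.35) and limma called 0 of them, with 3 at an unadjusted p under 0.05. Voom called 2, and limma without HM-13 called 4 (Tubb3, Stmn2, Tbr1 and Gap43, named after their values were seen). HM-13 had the highest Ndn, Snrpn and Mkrn3 values and the highest neuronal sum of the cKO libraries, and HC-10 the highest of all libraries for each. Of these genes, Mkrn3 alone had the order of the neuronal sum over all libraries. Against that order, Ndn was higher in HC-1 (272 FPKM) than in HC-8 (220 FPKM), and Snrpn higher in HM-5 (1.11 FPKM) than in HM-16 (0.882 FPKM). Magel2 was highest in HM-13 among cKO libraries (3.74 FPKM) but in HC-1 among WT libraries (6.03 FPKM), with HC-10 at 5.68 FPKM. The part of neurons in the values of these genes, Magel2 included, was not tested.

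**Figure D3:**
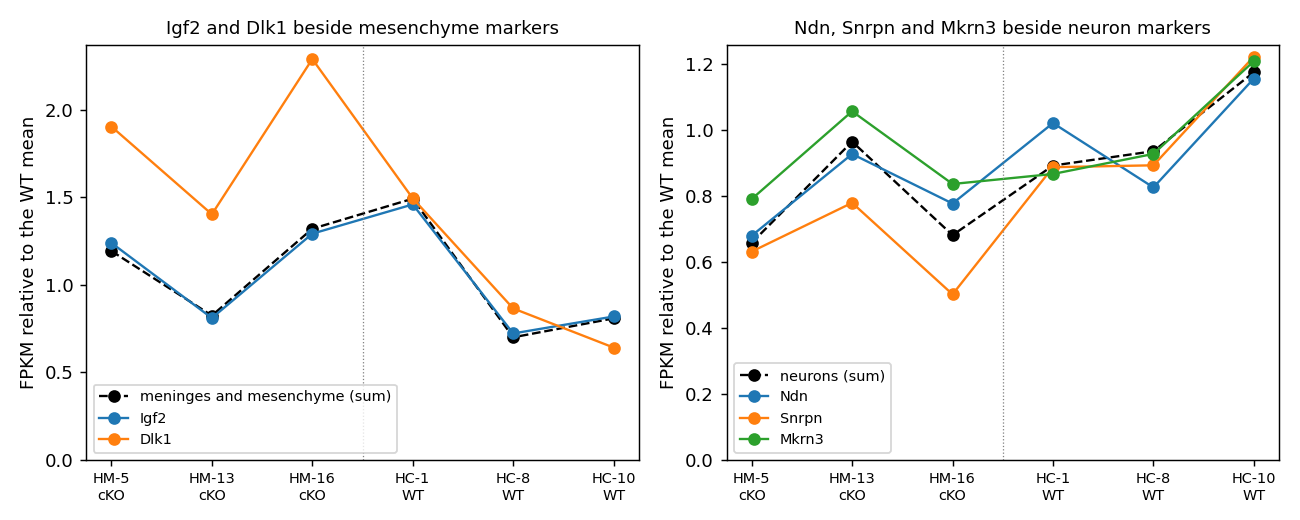
FPKM relative to the WT mean in each of the 6 libraries, cKO left of the dotted line, for the sum of mesenchymal markers with Igf2 and Dlk1 and for the sum of neuronal markers with Ndn, Snrpn and Mkrn3. HC-1 is highest for Igf2 and for the mesenchymal sum, and HC-10 is highest for Ndn and for the neuronal sum.

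Commd1, an adaptor of copper transport and endosomal sorting that is expressed mainly from the maternal copy in brain, fell by a small amount. It was at 29.8, 29.1 and 27.4 FPKM in cKO, against 35.5, 33.8 and 37.3 FPKM in WT. The groups did not overlap. The means were 28.8 ± 1.27 FPKM in cKO and 35.5 ± 1.76 FPKM in WT (SD, n = 3 each), or 80.9% of WT. In log2 terms the difference was -0.30 (SE 0.07; limma, adjusted p = 0.0259). The call was lost by voom (adjusted p = 0.0622), and without HM-5 (0.0751), HM-16 (0.0961), HC-1 (0.0648) or HC-10 (0.0944). Zrsr1, a paternally expressed splicing factor gene that lies within Commd1 on the opposite strand and shares 412 exon bases with it, was at 4.55, 5.56 and 5.05 FPKM in cKO, against 5.17, 4.77 and 5.22 FPKM in WT (limma, adjusted p = 0.986).

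Besides Snrpn, 3 members did not overlap between groups and yet missed the threshold, all of them below WT. Impact, a paternally expressed regulator of the stress kinase GCN2, was at 20.3, 19.5 and 18.2 FPKM in cKO, against 24.1, 24.9 and 21.7 FPKM in WT (82.0% of WT; limma, adjusted p = 0.0586; voom, 0.0455). Limma called Impact in 0 of the 6 fits that left out 1 library (largest adjusted p 0.179). Mcts2, a paternally expressed retrogene inside H13, was at 37.6, 40.5 and 40.3 FPKM in cKO, against 50.4, 42.1 and 47.3 FPKM in WT (84.6% of WT; limma, adjusted p = 0.0829; voom, 0.134). Limma called Mcts2 in 1 of the 6 fits that left out 1 library (0.0383 without HC-8, largest adjusted p 0.244). H13, the host of Mcts2 and a maternally expressed signal peptide peptidase, overlapped between groups, at 13 to 15.1 FPKM in cKO, against 12.7 to 16.9 FPKM in WT.

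Inpp5f, a phosphoinositide phosphatase gene, has a short 3′ transcript from an internal promoter that is known to be paternally expressed in brain. The row measured for it (ENSMUST00000118605) begins 77161 bases into the gene. It was at 3.11, 4.39 and 4.32 FPKM in cKO, against 6.31, 5.13 and 6.66 FPKM in WT. The groups did not overlap and cKO had 65.3% of the WT level (limma, adjusted p = 0.0517; voom, 0.0345). Limma called this row in 0 of the 6 fits that left out 1 library (largest adjusted p 0.162). The full-length row (ENSMUST00000043138) lay the other way, at 1.77, 1.64 and 2.02 FPKM in cKO, against 1.22, 1.14 and 1.62 FPKM in WT. Its groups came close without overlapping (limma with every row as a feature, adjusted p = 0.178). The ratio of the short to the full-length row was 1.76, 2.68 and 2.14 in cKO, against 5.17, 4.49 and 4.10 in WT. This is a log2 difference of -1.08, and the two-sided exact permutation test gave p = 0.10, the smallest that 3 against 3 allows. The other Inpp5f row overlapped between groups (limma with every row as a feature, adjusted p = 0.584).

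The remaining tested members overlapped between groups. Together with the genes named above that overlapped, they make 16 members with ratios of cKO to WT from 0.795 (Ndn) to 1.25 (Nap1l5) and no adjusted p under 0.163. Among paternally expressed genes, the placental retrotransposon-derived Peg10 was at 26, 24.4 and 35 FPKM in cKO, against 25.7, 37.3 and 27.8 FPKM in WT. The zinc finger factor Plagl1, known to regulate other imprinted genes, was at 35.1, 33.6 and 38.8 FPKM in cKO, against 41.7, 33.4 and 35.5 FPKM in WT. The silencing RNA Kcnq1ot1 was at 1.94, 2.30 and 1.59 FPKM in cKO, against 1.93, 2.33 and 1.88 FPKM in WT. The cKO and WT libraries of each of these 3 genes overlapped. Nnat, a membrane proteolipid of the developing brain, was at 51.8, 47.5 and 51.5 FPKM in cKO, against 62.9, 53.7 and 46.7 FPKM in WT. The non-coding Peg13 was at 35.2, 39.9 and 38.5 FPKM in cKO, against 35.4, 38 and 44.5 FPKM in WT. Nap1l5, of the nucleosome assembly protein family, was at 7.94, 6.50 and 6.66 FPKM in cKO, against 3.94, 5.80 and 7.14 FPKM in WT (limma, adjusted p = 0.293).

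In the Kcnq1ot1 cluster, the maternally expressed tetraspanin Cd81 was at 155, 151 and 171 FPKM in cKO, against 168, 123 and 139 FPKM in WT (limma, adjusted p = 0.364). Its neighbour Nap1l4, a histone chaperone, lay between 1.66 and 2.00 FPKM in all 6 libraries. Gnas, which encodes the stimulatory G protein subunit, was at 4.82, 5.91 and 5.86 FPKM in cKO, against 5.01, 6.75 and 4.43 FPKM in WT. The Gnas row begins at the upstream-most start of the locus, that of the maternally expressed Nesp transcript, and was not separated further by allele.

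Besides the low genes of the Dlk1/Meg3 cluster, 5 members with a row were untested. The 9 untested members held 2 to 46 reads per library, at 0.0547 to 1.36 FPKM. The apoptosis-linked Blcap, the neighbour of Nnat, was at 1.05, 0.661 and 0.990 FPKM in cKO, against 0.422, 0.521 and 0.223 FPKM in WT (limma without the filter, adjusted p = 0.0495). Its groups did not overlap, which held for 35.2% of all 12041 symbols when none was filtered out. Limma without the filter called 13.7% of all 12041 symbols. The ubiquitin protease gene Usp29 was also higher in every cKO library, at 0.459, 0.510 and 0.341 FPKM in cKO, against 0.249, 0.314 and 0.150 FPKM in WT (limma without the filter, adjusted p = 0.147). The actin-binding Ppp1r9a was lower in every cKO library, at 0.167, 0.137 and 0.0673 FPKM, against 0.294, 0.223 and 0.289 FPKM in WT (limma without the filter, adjusted p = 0.152). Peg3, a zinc finger factor, and the vesicle tethering gene Trappc9 overlapped between groups. The 12 listed genes without a row (Airn, Asb4, Cdkn1c, H19, Mirg, Phlda2, Rasgrf1, Sgce, Snurf, Tssc4, Ube3a and Zim1) were not analysed here.

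The authors' deposited table, computed on normalized counts, gives an FDR for 26 of the members, and 6 are under 0.05. In the authors' deposited table these are Igf2r (log2 fold change 0.63, FDR 1.55e-06), Meg3 (0.58, FDR 2.5e-08), Magel2 (-0.55, FDR 0.00206), Inpp5f (-0.55, FDR 0.00987), Mest (-0.76, FDR 0.0109) and Impact (-0.27, FDR 0.0468). Commd1 has an FDR of 0.122 and Ndn 0.0502 in the authors' deposited table.

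A wider list of 49 other genes reported as imprinted in mouse in some tissues had 22 in the table and 14 tested. Of these 14, 0 rose and 4 fell, beside 9.62% and 8.39% of all symbols, with a median log2 fold change of -0.16 beside -0.01. Casd1, a sialic acid acetyltransferase gene 31.0 kb from Sgce, was at 28.1, 31.8 and 29.5 FPKM in cKO, against 43.8, 43.4 and 42.7 FPKM in WT (68.7% of WT; limma, adjusted p = 0.00397). The lactonase Pon2, 503.6 kb from Peg10, was at 15, 15.5 and 17.2 FPKM in cKO, against 26.2, 24.6 and 23.4 FPKM in WT (64.2% of WT; limma, adjusted p = 0.00475). The groups of both genes did not overlap, as for 39.1% of all symbols, and both calls held in all 6 fits that left out 1 library. The phospholipid flippase Atp10a, 399.3 kb from Ube3a, was at 62.3% of WT (limma, adjusted p = 0.0139) and the cholesterol enzyme Dhcr7 at 78.1% (limma, adjusted p = 0.0172). The Atp10a call was lost without HM-5 or HM-16, and the Dhcr7 call without HM-5, HM-16 or HC-1.

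Among 32 genes listed for the laying down, reading and keeping of imprints, 20 were tested, of which 1 rose and 6 fell, beside 9.62% and 8.39% of all symbols, with a median log2 fold change of -0.19 beside -0.01. Kdm1b, the H3K4 demethylase needed in the oocyte to set maternal imprints, was at 8.10, 7.94 and 7.45 FPKM in cKO, against 4.05, 4.77 and 4.71 FPKM in WT. It rose 1.74-fold (limma, adjusted p = 0.00636) and its call held in all 6 fits that left out 1 library. The chromatin remodeller Atrx fell to 79.5% of WT (limma, adjusted p = 0.00881), the Polycomb subunit Eed to 80.6% (0.0117) and the heterochromatin protein gene Cbx3 to 78.1% (0.0186). The Atrx call held in all 6 fits that left out 1 library. The Eed call was lost without HM-5, and the Cbx3 call without HM-5, HM-16 or HC-10. The other 3 that fell were Hells, called in 2 of the 6 fits, Cbx1, called in 1, and the imprint-binding zinc finger gene Zfp445, called in 0 (largest adjusted p 0.133). Chosen for their known role after their values were seen, 3 more genes did not pass the test. Zfp57 was at 14.7, 19.8 and 17.6 FPKM in cKO, against 19.9, 22.8 and 20.0 FPKM in WT (limma, adjusted p = 0.16). Trim28 was at 89.2% of WT (0.224) and the maintenance DNA methyltransferase Dnmt1 at 76.8% (0.156).

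**Figure D4:**
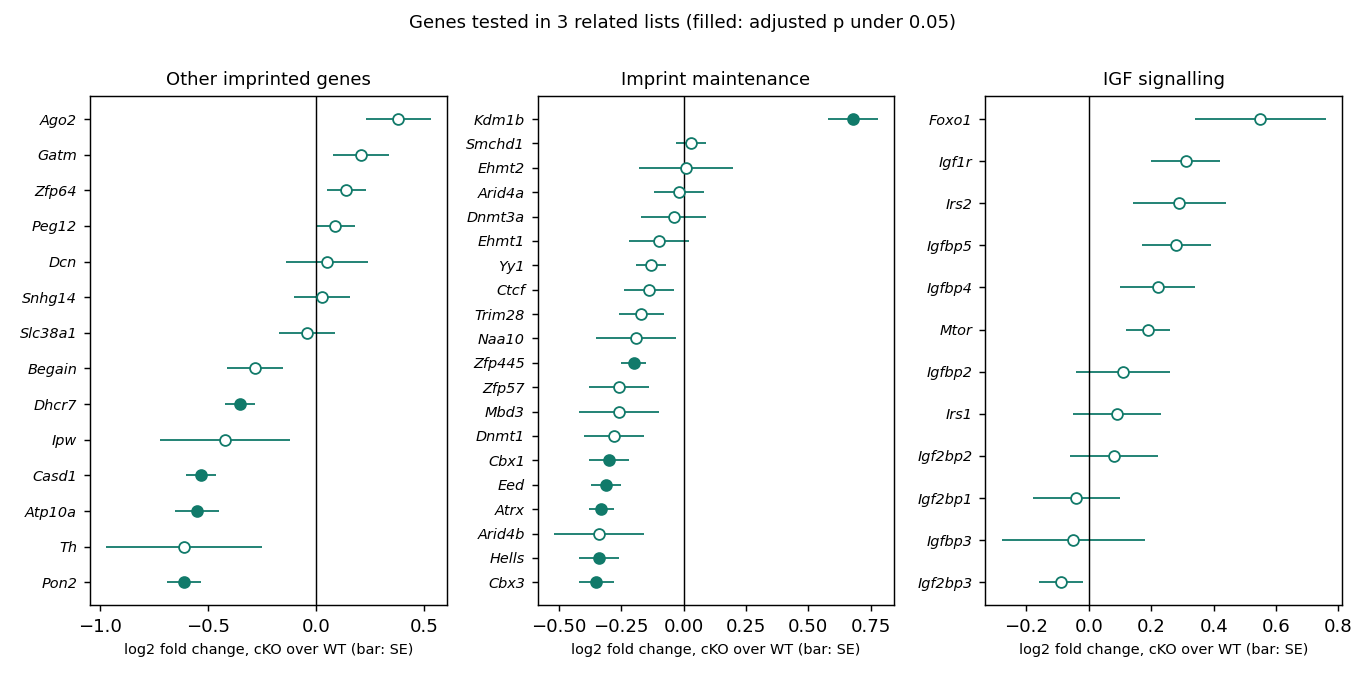
The log2 fold change, cKO over WT on the log2(FPKM + 1) scale with its standard error, of the tested genes of 3 related lists, with filled points for an adjusted p under 0.05. In the list of other imprinted genes 4 of 14 points are filled and all lie below 0, in the imprint maintenance list 1 filled point lies above and 6 below 0, and in the IGF list 0 of 12 are filled.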

How the data were processed

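RNA was sequenced from 3 cKO and 3 WT cortex samples. Per the labels' protocols, Trizol was used for RNA and a TruSeq RNA kit for the libraries. Per the submitters' processing notes, the build was mm10 and the tools were DESeq2 1.22.1, R 3.4.1, featureCounts 1.6.1, STAR 2.5.4b and bcl2fastq 1.8.4. Strandedness, the annotation and how reads shared by several rows were counted are not stated in the sources used here. Per the file headers, the deposited table holds FPKM for each library, with 14379 rows. The authors' deposited mean normalized count (a signal over the 6 libraries), log2 fold change, p-value and FDR stand beside it, the FDR missing for 4509 rows. Columns are named HC and HM with a number, and these letters alone were taken to mean mutant (HM, cKO) and control (HC, WT). The table had 0 unused columns of per-sample values, and 0 pairs of libraries held identical values.

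Each symbol was represented by its row with the highest mean normalized count. Since the values are FPKM, the count test was not the main one: limma 3.58.1 (R 4.3.3) with a trend was run on log2(FPKM + 1) over the 9359 symbols with at least 1 FPKM in at least 3 libraries, with Benjamini-Hochberg adjustment. Reads recovered from the FPKM steps were whole within 0.001 read for 100% of values, and row lengths within 0.05 base for 100.0%. Whole-read recovery served voom and the depth. The script was tested on simulated data. Positions and overlaps came from GENCODE M21 and promoters from RefSeq, both on GRCm38. The promoter search covered both strands. Every tested member could be named, with values per library for called members and cluster partners. In other lists, up to 4 called genes with the smallest p were named, or 2 where 0 were called. The members, lists and alleles were chosen with earlier results of these data known. The alternatives were pseudocounts of 0.1 and 5, no filter, library totals with and without Rn45s, quantile normalization, voom, every row as a feature, and leaving out each library.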

Additional observations from a re-analysis of the deposited data

How the results depend on the processing

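Across the alternatives, the 5 called members kept their direction and their call in 51 values, kept the direction and lost the call in 19, and reversed in 0. With FPKM rescaled to library totals, in which Rn45s of HM-13 counts, 497 genes changed in place of 1685, 0 members rose and 1 (Mest) fell, the median of all genes moved to -0.085, and the median log2 fold change was -0.20 for paternally and -0.04 for maternally expressed members. With totals without Rn45s, chosen after seeing the data, the median of all genes was 0.041 and the paternal median -0.05. The paternal median was -0.07 with no filter and -0.08 with every row as a feature. Quantile normalization gave 6 members that fell in place of 3. Of all calls, 53.4% were higher in cKO in the main test, 60.4% with library totals and 62.3% with totals without Rn45s. Leaving out 1 library gave 511 (without HM-5), 545 (HM-16), 888 (HC-10) or 1103 (HC-1) and up to 1773 genes changed (HM-13), with 45.4% to 63.3% of calls higher in cKO, 1 to 2 members that rose, 0 to 4 that fell, and medians of -0.18 to -0.07 for paternally and 0.02 to 0.10 for maternally expressed members. The cause of these shifts was not tested.

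Values near 0 of members not called changed sign. With library totals Copg2 was at -0.04 and Gnas at -0.04. With totals without Rn45s Plagl1 was at 0.02, Nap1l4 at 0.03, Peg13 at 0.01 and Zrsr1 at 0.05. With 1 library left out, values ran from -0.0063 to 0.41 for Igf2, -0.24 to 0.07 for Peg10, -0.10 to 0.05 for Plagl1, -0.14 to 0.04 for Kcnq1ot1, -0.05 to 0.04 for Nap1l4, -0.07 to 0.19 for Gnas, -0.21 to 0.0041 for Nnat, -0.12 to 0.04 for Peg13 and -0.06 to 0.06 for Zrsr1.

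No paired analysis was possible because the columns carry no replicate numbers that match the labels. Depth limits the low members: 26 reads were the fewest behind a value of a tested member.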

Other observations

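In all, 7 ratios between rows of 1 gene or cluster partners were compared, each with a two-sided exact permutation test whose smallest p is 0.10. Copg2 over Mest was 65.4, 64.6 and 74.0 in cKO, against 30.8, 27.3 and 39.8 in WT (exact permutation p = 0.10). Commd1 over Zrsr1 was 6.56, 5.24 and 5.42 in cKO, against 6.88, 7.08 and 7.14 in WT (exact permutation p = 0.10). Igf2r over Igf2 was 11.4, 13.2 and 10.9 in cKO, against 6.45, 11 and 8.78 in WT (exact permutation p = 0.20). The smallest of the 7 Benjamini-Hochberg adjusted values was 0.23, so no ratio passed.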
